A study of Mus musculus with 43 samples.

Results

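The smooth muscle contractile genes examined here are 10 genes, found by matching the NCBI Gene IDs of the count table to the mouse symbols Acta2, Actg2, Tagln, Cnn1, Lmod1, Myh11, Mylk, Des, Synpo2 and Hhip. All 10 were among the 24475 genes of the table, and all 10 passed the filter on low counts that left 15979 genes for testing. The samples were 43 whole lungs of female mice of a hybrid 129S6/C57BL/6 background. The labels give an age of 8 to 12 weeks for all of them. This cannot be the age at sampling of mice given HDM for 19 weeks, and the age at sampling is not given. Per the design text, the mice used to assess the antibodies carried human sequence in place of mouse IL-4, IL-33 and the outer part of IL-4Rα, and the labels do not say whether the untreated mice carried it too. The groups without antibody were saline (n = 5) and house dust mite extract (HDM) given into the nose 3 times a week for 11 weeks (n = 6) or 19 weeks (n = 7). The remaining mice had HDM for 19 weeks and received an isotype control (n = 7), itepekimab, which blocks IL-33, plus isotype (n = 6), dupilumab, which blocks IL-4Rα, plus isotype (n = 7), or both blocking antibodies, called the combination (n = 5). The labels give neither the start of antibody treatment in these libraries nor the duration of saline, so age and time in the study may differ between saline and HDM mice.

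Smooth muscle of the airways and lung vessels contracts when myosin motors pull on actin filaments. Acta2 and Actg2 encode the smooth muscle actins, and Tagln, Cnn1 and Lmod1 encode proteins that bind, restrain or extend the actin filament. Myh11 encodes the smooth muscle myosin heavy chain, and Mylk encodes the kinase that phosphorylates the myosin light chain and so starts contraction. Des encodes desmin, the intermediate filament that links contractile units, and Synpo2 encodes an actin-bundling protein of dense bodies. Hhip is different in kind, since it encodes a membrane protein that binds Hedgehog ligands and dampens their signal. In many of these genes, serum response factor and its partner myocardin act through a DNA element called the CArG box. Acta2 and Tagln are also expressed by myofibroblasts, and Des and Mylk by other cell types, so none of the values below belongs to airway muscle alone. In whole lung, fewer smooth muscle cells and less RNA per cell cannot be told apart.

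Promoter sequences, 250 bases before to 50 bases after the transcript start that the RefSeq table uses, were on hand for 7 of the 10 genes. They are shown for the 4 genes that were called higher in a comparison below, Acta2 and Lmod1 at 11 weeks of HDM and Cnn1 and Des with the combination. Capitals mark the CArG box, here CC and GG around 6 letters of which at most 1 is other than A or T. This form reads the same on both strands. Positions are in GRCm38.p6, and sequences run 5′ to 3′ on the gene's strand, with Acta2 at chr19:34255324-34255623 (minus strand), Lmod1 at chr1:135324563-135324862 (plus), Cnn1 at chr9:22099003-22099302 (plus) and Des at chr1:75360042-75360341 (plus).
Acta2: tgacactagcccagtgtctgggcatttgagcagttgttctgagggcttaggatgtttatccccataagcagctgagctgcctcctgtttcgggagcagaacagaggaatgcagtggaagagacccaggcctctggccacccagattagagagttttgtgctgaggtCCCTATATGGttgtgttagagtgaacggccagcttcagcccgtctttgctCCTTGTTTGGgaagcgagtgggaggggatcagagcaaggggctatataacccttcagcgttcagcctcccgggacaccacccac
Lmod1: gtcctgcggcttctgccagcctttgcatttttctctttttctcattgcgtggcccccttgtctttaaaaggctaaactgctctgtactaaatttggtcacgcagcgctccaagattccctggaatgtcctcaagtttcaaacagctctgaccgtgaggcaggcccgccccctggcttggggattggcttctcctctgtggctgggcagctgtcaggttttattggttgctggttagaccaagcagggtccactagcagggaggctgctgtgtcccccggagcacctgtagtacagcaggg
Cnn1: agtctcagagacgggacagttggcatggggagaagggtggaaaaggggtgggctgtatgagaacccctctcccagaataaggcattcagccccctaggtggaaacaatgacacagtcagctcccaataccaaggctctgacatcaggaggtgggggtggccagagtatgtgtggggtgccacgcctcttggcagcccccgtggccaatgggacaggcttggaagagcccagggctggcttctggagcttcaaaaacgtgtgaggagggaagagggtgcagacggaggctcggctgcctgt
Des: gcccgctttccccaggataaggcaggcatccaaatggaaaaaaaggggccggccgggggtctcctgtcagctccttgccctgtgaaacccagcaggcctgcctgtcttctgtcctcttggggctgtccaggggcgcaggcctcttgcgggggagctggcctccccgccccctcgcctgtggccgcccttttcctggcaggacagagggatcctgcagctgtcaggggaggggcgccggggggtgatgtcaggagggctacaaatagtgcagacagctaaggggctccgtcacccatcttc
The Acta2 window held 2 boxes, beginning 84 and 34 bases before the start used for it, each with 1 middle letter other than A or T. That start lies inside the Acta2 span given below, which ends at 34255585, so these are not distances from the outer end of the gene. No other window of the 7 held a box of this form, and none held one with all 6 letters A or T. Of 32851 promoters in the table, 9.98% held a box with up to 1 such letter and 1.63% held an exact one. A box outside these 300 bases, in an intron for example, was not searched.

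The genes lie apart in the genome, on 7 chromosomes of GRCm38. Acta2 (Gene ID 11475) spans chr19:34240336-34255585, Actg2 (11468) chr6:83512909-83536251, Tagln (21345) chr9:45929628-45936058 and Cnn1 (12797) chr9:22099221-22109221. Lmod1 (93689) spans chr1:135324813-135368065, Des (13346) chr1:75360292-75368579, Myh11 (17880) chr16:14194527-14292188 and Mylk (107589) chr16:34745199-35002436. Synpo2 (118449) spans chr3:123076519-123236168 and Hhip (15245) chr8:79965850-80058060.

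Counted per kb of longest transcript, saline lungs held most Acta2 (84.8 ± 34.7 CPM per kb, SD, n = 5) and Tagln (71.4 ± 31.6), followed by Mylk (50.1 ± 8.56), Des (39.2 ± 33.2), Myh11 (27.7 ± 7.66) and Actg2 (20.5 ± 22.9). Cnn1 (12.2 ± 9.0), Hhip (4.59 ± 0.853), Lmod1 (4.41 ± 1.84) and Synpo2 (3.4 ± 1.1) were lowest. Neighbours in this order differed by less than the SD of the more variable one in each pair. The order depends on the transcript length used: with the mean length of a gene's transcripts, Mylk came first at 167 CPM per kb, ahead of Acta2 at 121 and Tagln at 118. Because actin genes are near copies of each other, every stretch of 33 bases, the read length, was searched in the transcripts of other genes. Exact copies elsewhere were found for 1.2% of the Acta2 stretches, 0.999% of the Actg2 stretches and 0.967% of the Myh11 stretches, the last mostly in Myh9.

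Libraries held between 11.93 and 26.75 M counts, with M for 1e+06. The lung genes Sftpc (6740 to 30260 CPM) and Ager (378 to 4079 CPM) were high in every library, and 5 of 6 markers of large airway cartilage fell below the filter on low counts. Genes of cardiac muscle, which surrounds the pulmonary veins in mice, were read in every library (summed 77.5 to 707 CPM over 11 genes). The highest sums, 707 and 563 CPM, were in replicate 1 of 19 weeks of HDM and saline replicate 3, which also held skeletal muscle genes, as given next. A pair of library sets stood apart, and values without them are given below where a call or a named value changed. In saline replicate 3 and replicate 1 of 19 weeks of HDM, 7 skeletal muscle genes summed to 1960 and 1563 CPM, against 2.85 to 266 in the other libraries, and 5 squamous epithelium genes to 12490 and 3787 CPM, against 0.31 to 174. The second set is 9 libraries whose expression tilted towards GC-rich transcripts. In these the slope of log2 expression, relative to the mean library, on transcript GC content exceeded 0.75 per 10 percentage points of GC, and they are called steep here. They numbered 1 of 7 at 19 weeks, 2 of 6 with anti-IL-33, 3 of 7 with anti-IL-4Rα and 3 of 5 with the combination, and none in saline, at 11 weeks or with isotype. Just below this limit lay replicate 7 of 19 weeks, at 0.738.

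**Figure D1:**
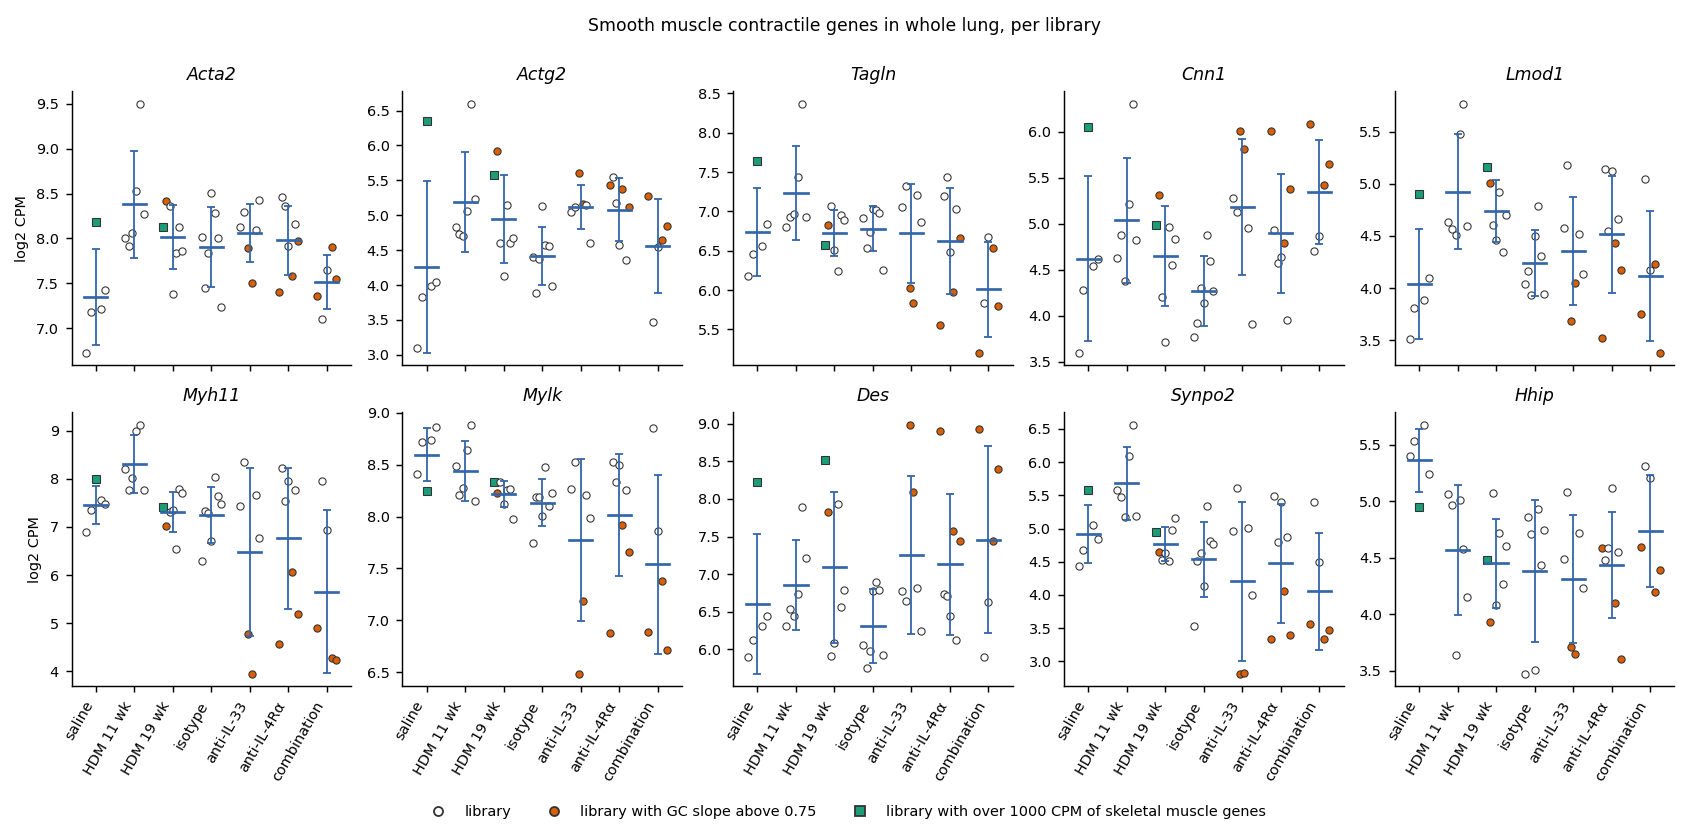
Level of each of the 10 genes (log2 CPM, y axis) in every library of the 7 groups (x axis), with bars for the mean and SD of a group. Orange points are the 9 steep libraries and green squares the 2 libraries with skeletal muscle genes. Most orange points lie low for Myh11 (15.3 to 130 CPM, median 27.1) and high for Des (173 to 507 CPM, median 273). Some other libraries lie within both of these ranges.

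After 11 weeks of HDM, Acta2 and Lmod1 rose against saline, and 6 further members had positive fold changes that did not pass the test. The 2 called members are 20% of the list, while 15.4% of all genes tested were called in this comparison (8.65% of all genes higher). The median log2 fold change was 0.56 over the 10 members and 0.00 over all genes tested. The labels name separate samples but not separate animals, so p-values measure the spread between these samples, called mice here, and that spread may be technical. Markers of other cells moved in the same comparison: 5 of 6 airway epithelium genes fell (median log2 fold change of the list -1.998), as did 5 of 5 adipose genes (-4.28), 3 of 4 mesothelium genes (-1.43) and 3 of 11 cardiac muscle genes (-1.04). Without the 2 libraries with skeletal muscle genes, these counts were 3, 2, 3 and 1, with medians of -1.51, -1.79, -1.43 and -0.83, and 1 airway epithelium gene rose. Their part in the values of the members was not tested.

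Acta2, the main smooth muscle actin, stood at 106, 145, 291, 148 and 172 CPM in saline replicates 1 to 5, and at 11 weeks its lowest value was 241, its median 288 and its highest 725 CPM. All 6 exposed mice lay above the saline mean, but the groups overlapped through saline replicate 3, the library with skeletal muscle genes. The log2 fold change was 1.07 (SE 0.275, adjusted p = 0.00543, edgeR). Without replicate 8 of the 11-week group it was 0.73 and did not pass (adjusted p = 0.0519, with 13.5% of all genes called), and without saline replicate 3 it was 1.33 (adjusted p = 0.00101). Lmod1, leiomodin, which seeds new actin filaments, stood at 11.4, 13.9, 29.9, 14.7 and 17.1 CPM in saline and from 22.7 (median 24.5) to 54.4 CPM at 11 weeks. Again the overlap came through saline replicate 3 alone. Its log2 fold change was 0.89 (SE 0.300, adjusted p = 0.0362), and it lost the call in 6 of 11 fits that left out 1 library of these groups, namely saline replicates 1, 2, 4 and 5 and 11-week replicates 4 and 8 (adjusted p of 0.0786 to 0.154, with 12% to 13.5% of all genes called). Replicate 8 of the 11-week group held the highest value of all 43 libraries for 8 of the 10 members, among them Tagln at 331, Cnn1 at 79.1 and Myh11 at 560 CPM.

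The other actin, Actg2, showed how far a single library can move a group. In saline it read 8.497, 14.2, 81.6, 15.7 and 16.3 CPM, and at 11 weeks it ran from 26.0 (median 30.9) to 96.9 CPM. Every exposed mouse thus lay above 4 of the 5 saline mice and 1 above the fifth. With all libraries the log2 fold change was 0.60 (SE 0.411, adjusted p = 0.384). Leaving out the 2 libraries with skeletal muscle genes gave 1.60 (adjusted p = 0.00199), and Actg2 joined Acta2 (1.34) and Lmod1 (1.18) among 3 called members, beside 14.1% of all genes.

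The myosin heavy chain and the dense body protein had positive values that did not pass. Myh11 stood at 119, 163, 257, 190 and 178 CPM in saline and from 217 (median 278) to 560 CPM at 11 weeks, with a log2 fold change of 0.92 (SE 0.611, adjusted p = 0.368). Synpo2 stood at 21.5, 25.4, 47.8, 33.2 and 28.5 CPM in saline and from 36.1 (median 46.1) to 94.4 CPM at 11 weeks, with a log2 fold change of 0.80 (SE 0.426, adjusted p = 0.233). All 6 exposed mice were above the saline mean for both genes. The wide errors come from a spread estimate shared by all 7 groups, and the steep libraries, none of which is in these 2 groups, add to it. When they were left out of the fit, the fold changes of Myh11 (0.90, adjusted p = 0.0229) and Synpo2 (0.78, adjusted p = 0.0364) hardly moved and passed, 5 members were called, and 33.2% of all genes were called. With both sets of libraries left out, 7 members rose (Acta2, Actg2, Tagln, Cnn1, Lmod1, Myh11 and Synpo2) and Hhip fell, 8 of 10, where 35.5% of all genes were called. Mylk and Des were the members without a call in that fit, at -0.24 and 0.75. Mylk was the one contractile member with a negative value in the fit with all libraries, a log2 fold change of -0.15 (95% interval -0.74 to 0.44).

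**Figure D2:**
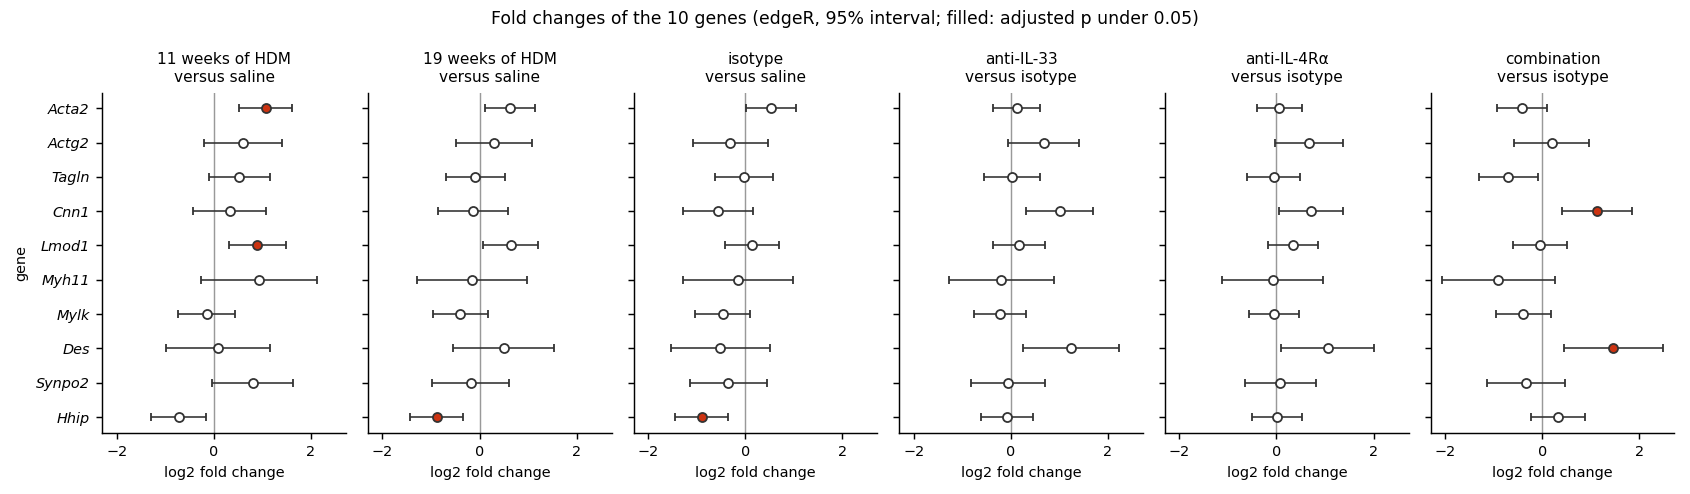
Log2 fold change of each gene (x axis) in 6 comparisons, with bars for the 95% interval from edgeR and filled points for an adjusted p under 0.05. Filled points are Acta2 and Lmod1 at 11 weeks, Hhip at 19 weeks and with isotype against saline, and Cnn1 and Des for the combination against isotype.

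At 19 weeks of HDM, Hhip fell and no contractile member passed the test. It was called alone, 1 of 10 members where 34.8% of all genes were called (15.6% lower), and the median log2 fold change of the members was -0.11. Hhip stood at 42.2, 46.1, 30.9, 51.1 and 37.7 CPM in saline and from 15.2 (median 22.2) to 33.6 CPM at 19 weeks, where 6 of 7 mice lay below the lowest saline mouse. Its log2 fold change was -0.89 (SE 0.281, adjusted p = 0.0141). With each library's GC slope in the model it was -0.42 and did not pass (adjusted p = 0.17, edgeR). The longest Hhip transcript had the lowest GC content of the 10 members, 41.2%. The mean GC slope was -0.6 ± 0.174 (SD) in saline, the lowest of the groups. It was -0.364 ± 0.19 at 11 weeks, 0.159 ± 0.527 at 19 weeks and -0.129 ± 0.263 with isotype. The part of this tilt in the lower Hhip values was not tested further. At 11 weeks Hhip had run from 12.4 (median 27.5) to 33.4 CPM, a log2 fold change of -0.73 (SE 0.293, adjusted p = 0.0895) against the same saline mice.

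Acta2 and Lmod1 had smaller positive values at 19 weeks that just missed the threshold. Acta2 ran from 167 (median 280) to 343 CPM (log2 fold change 0.62, SE 0.264, adjusted p = 0.0616) and Lmod1 from 20.2 (median 26.0) to 35.6 CPM (0.64, SE 0.290, adjusted p = 0.0795). The highest saline value of each, 291 and 29.9 CPM, was again that of replicate 3. Without the 2 libraries with skeletal muscle genes, Acta2 (0.88, adjusted p = 0.0183), Actg2 (1.19, adjusted p = 0.0123) and Lmod1 (0.85, adjusted p = 0.0363) rose and Hhip (-0.97) fell, 4 members where 28.7% of all genes were called. Leaving out saline replicate 3 alone gave the same 4 calls (34.2% of all genes), and leaving out replicate 6 of 19 weeks added Acta2 to Hhip (35.5%). Des stood at 59.8, 69.6, 298, 79.6 and 87.0 CPM in saline and from 60.03 (median 110) to 368 CPM at 19 weeks. Its highest values in both groups, 298 and 368 CPM, were in the 2 libraries with skeletal muscle genes, a tissue that also makes desmin, and the part of that tissue in the Des values of other libraries was not tested. The log2 fold change of Des was 0.50 (SE 0.534, adjusted p = 0.473). Tagln, Cnn1, Myh11, Mylk and Synpo2 had log2 fold changes between -0.39 and -0.08, with 95% intervals from -1.28 to 0.99.

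Between 19 and 11 weeks no member passed with edgeR, and 0.106% of all genes were called. An unadjusted p under 0.05 was found for 2 of 10 members (Synpo2 and Tagln) and for 2296 of all 15979 genes. DESeq2 called 0 members and limma voom, run with sample weights throughout, called 1, Synpo2. Of all genes, DESeq2 called 70 higher and 30 lower, and limma voom 162 higher and 143 lower. Fold changes were negative for 9 of 10 members (median -0.37, against -0.00 for all genes). Synpo2 ran from 22.8 (median 24.9) to 35.6 CPM at 19 weeks and from 36.1 CPM upwards at 11 weeks, without overlap (log2 fold change -0.98, SE 0.387, adjusted p = 0.295, edgeR). The share of all genes whose groups separate was not computed, here or in other comparisons. The value for Synpo2 was -0.96 (adjusted p = 0.059) without the steep libraries and -1.01 (0.499) without those with skeletal muscle genes. Myh11 ran from 93.4 (median 165) to 220 CPM at 19 weeks, with 6 of 7 mice below the lowest 11-week mouse at 217 CPM (log2 fold change -1.07, SE 0.553, adjusted p = 0.355). Des, at 0.42, was the exception in sign.

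The isotype group repeated the low Hhip. No member differed between isotype and untreated mice at 19 weeks with edgeR, DESeq2 or limma voom, where 0% of all genes were called with edgeR. DESeq2 called 2 of all genes higher and 1 lower there, and limma voom 0 higher and 1 lower. With edgeR 1 member, Des, had an unadjusted p under 0.05 (log2 fold change -1.01), as did 341 of all 15979 genes. Against the shared saline mice, Hhip in isotype mice ran from 11.1 (median 26.2) to 30.5 CPM, below every saline mouse, and fell by 0.90 on the log2 scale (SE 0.281, adjusted p = 0.0158). It was the only member called, where 25.3% of all genes were called (12.4% lower). Acta2 was at 0.53 (adjusted p = 0.136) and passed without saline replicate 3 (23.3% of all genes).

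Neither single antibody moved a member past the threshold. Against isotype, anti-IL-33 gave 0 of 10 members with edgeR and 0% of all genes, and 2 members, Cnn1 and Des, with an unadjusted p under 0.05. Anti-IL-4Rα gave the same 0 of 10, 0% and 2 members. Of all 15979 genes, 2878 had an unadjusted p under 0.05 with anti-IL-33 and 2242 with anti-IL-4Rα. DESeq2 and limma voom also called 0 members in both. Of all genes, DESeq2 called 8 higher and 0 lower with anti-IL-33, and 14 higher and 0 lower with anti-IL-4Rα. Limma voom called 482 higher and 537 lower with anti-IL-33, and 10 higher and 2 lower with anti-IL-4Rα. The comparisons share the isotype mice, and their values stand side by side as follows. Des was at 1.23 (95% interval 0.25 to 2.22) with anti-IL-33 and 1.05 (0.10 to 2.01) with anti-IL-4Rα. Cnn1 was at 1.01 (0.32 to 1.70) and 0.71 (0.05 to 1.38). Actg2 was at 0.68 in one (-0.06 to 1.41) and 0.67 in the other (-0.04 to 1.38). Acta2 had the narrowest intervals, with 0.12 (-0.36 to 0.61) for anti-IL-33 and 0.06 (-0.41 to 0.53) for anti-IL-4Rα. Hhip was at -0.08 (-0.61 to 0.45) and 0.01 (-0.50 to 0.52). The values of Des rested largely on the steep libraries, and those of Cnn1 in part. Des read 507 and 273 CPM in the 2 steep libraries of the anti-IL-33 group and 75.8 to 113 CPM in the others. In the anti-IL-4Rα group it read 481, 190 and 174 CPM in the 3 steep libraries (replicates 2, 6 and 8) and 69.9 to 106 CPM in the others. Cnn1 read 64.3 and 56.2 CPM in the 2 steep libraries with anti-IL-33 and 38.8, 34.9, 30.9 and 15.0 CPM in the others. With anti-IL-4Rα Cnn1 read 64.2, 27.7 and 41.6 CPM in the steep libraries and 15.4 to 30.4 CPM in the others. With isotype Cnn1 ran from 13.6 to 29.5 CPM. Without the steep libraries, Des was at 0.26 with anti-IL-33 (adjusted p = 0.999) and 0.15 with anti-IL-4Rα (0.996), and Cnn1 at 0.60 (0.941) and 0.26 (0.996). Adjusted p for these members, with all libraries, was 0.246 or more with anti-IL-33 and 0.329 or more with anti-IL-4Rα.

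With the combination, Cnn1 and Des rose against isotype, 2 of 10 members where 19% of all genes were called (12.6% higher). The median log2 fold change over the members was -0.19, against 0.04 over all genes. Des stood at 488, 59.5, 98.8, 173 and 337 CPM in combination replicates 1, 2, 3, 5 and 8, and from 53.9 (median 66.9) to 119.5 CPM with isotype. Cnn1, calponin, which restrains actin-activated myosin, stood at 68.0, 26.1, 29.1, 42.9 and 50.1 CPM in the same mice and from 13.6 (median 19.3) to 29.5 CPM with isotype. For both genes the 3 mice above the isotype range were replicates 1, 5 and 8, the steep libraries, and the others lay within it. The log2 fold changes were 1.47 for Des (SE 0.524, adjusted p = 0.0456) and 1.12 for Cnn1 (SE 0.367, adjusted p = 0.0348). Isotype mice had the lowest mean of the 7 groups for both genes. Against saline, Des was at 0.96 (SE 0.575, adjusted p = 0.159, edgeR) and Cnn1 at 0.57 (SE 0.401, adjusted p = 0.233), and neither passed. Without the steep libraries, which left only combination replicates 2 and 3, no member was called, where 3.19% of all genes were called. In that fit Des was at -0.068 (adjusted p = 0.951, edgeR) and Cnn1 at 0.48 (adjusted p = 0.517). With so few mice, the lost calls cannot show that a change is absent. Single libraries also decided these calls, and with them the share of all genes called. Without combination replicate 1 or 8 no member was called (1.3% and 2.95% of all genes), nor without isotype replicate 1, 2 or 3 (8.39% to 9.44%). Without combination replicate 5, or isotype replicate 8 or 9, Cnn1 alone was called (9.54% to 13.5%). Leaving out combination replicate 2, the library with the lowest GC slope (-0.95), gave 4 calls, where 49.5% of all genes were called. These were Cnn1 and Des higher and Mylk and Myh11 lower. Leaving out replicate 3 added Tagln as lower to Cnn1 and Des (31.1%). Markers of other cells rose in the same comparison, namely 5 of 5 adipose genes (median log2 fold change 4.15), 5 of 6 airway epithelium genes (1.995) and 3 of 11 cardiac muscle genes (1.18), the last a tissue that also makes desmin. None of these was called without the steep libraries, where the medians were 1.85, 1.15 and 0.33, and their part in the values of Des was not tested.

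Myh11 and Mylk went the other way in the same mice. Myh11 stood at 29.7, 247, 122, 19.2 and 18.6 CPM in combination replicates 1, 2, 3, 5 and 8 and from 78.7 (median 161) to 263 CPM with isotype, so that the steep libraries lay below the whole isotype range. The test across the groups did not pass (log2 fold change -0.90, SE 0.596, adjusted p = 0.244). Mylk stood at 118, 464, 233, 166 and 105 CPM with the combination and from 214 (median 291) to 358 CPM with isotype (-0.39, SE 0.292, adjusted p = 0.308). Tagln stood at 36.8, 57.1, 102, 93.0 and 55.4 CPM, with all 5 mice below the isotype mean and 3 below the isotype range, which began at 76.7 CPM (-0.70, SE 0.313, adjusted p = 0.0943). Acta2 and Lmod1 were at -0.42 and -0.04. Hhip was at 0.32 (95% interval -0.23 to 0.88), with 24.1, 39.6, 36.9, 18.3 and 20.9 CPM in the 5 mice.

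Between combination and saline mice, which differ in HDM exposure as well as antibodies, 1 member, Mylk, was lower in the former (log2 fold change -0.85, SE 0.315, adjusted p = 0.0257), where 48.1% of all genes were called (20.3% lower). Its call was absent without saline replicate 5 (42% of all genes), without any one of combination replicates 1, 5 and 8 (30.2% to 39.8%), and without the steep libraries (-0.18). Without saline replicate 3, Actg2, Cnn1 and Des rose as well, for 4 calls where 47.6% of all genes were called. Without combination replicate 2, Synpo2, Hhip and Myh11 fell beside Mylk (62.4%), and without saline replicate 1 or combination replicate 3, Tagln fell beside it (40.3% and 51.5%). Against anti-IL-33 and against anti-IL-4Rα, the combination gave 0 calls among the members with edgeR and DESeq2. With edgeR 0.0438% and 0.119% of all genes were called. DESeq2 called 2 genes higher and 18 lower against anti-IL-33, and 32 higher and 122 lower against anti-IL-4Rα. Tagln alone of the members had an unadjusted p under 0.05 in each, as did 778 and 1707 of all 15979 genes. Limma voom called 4 and 6 members there, and also 48.8% and 53.3% of all genes.

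**Figure D3:**
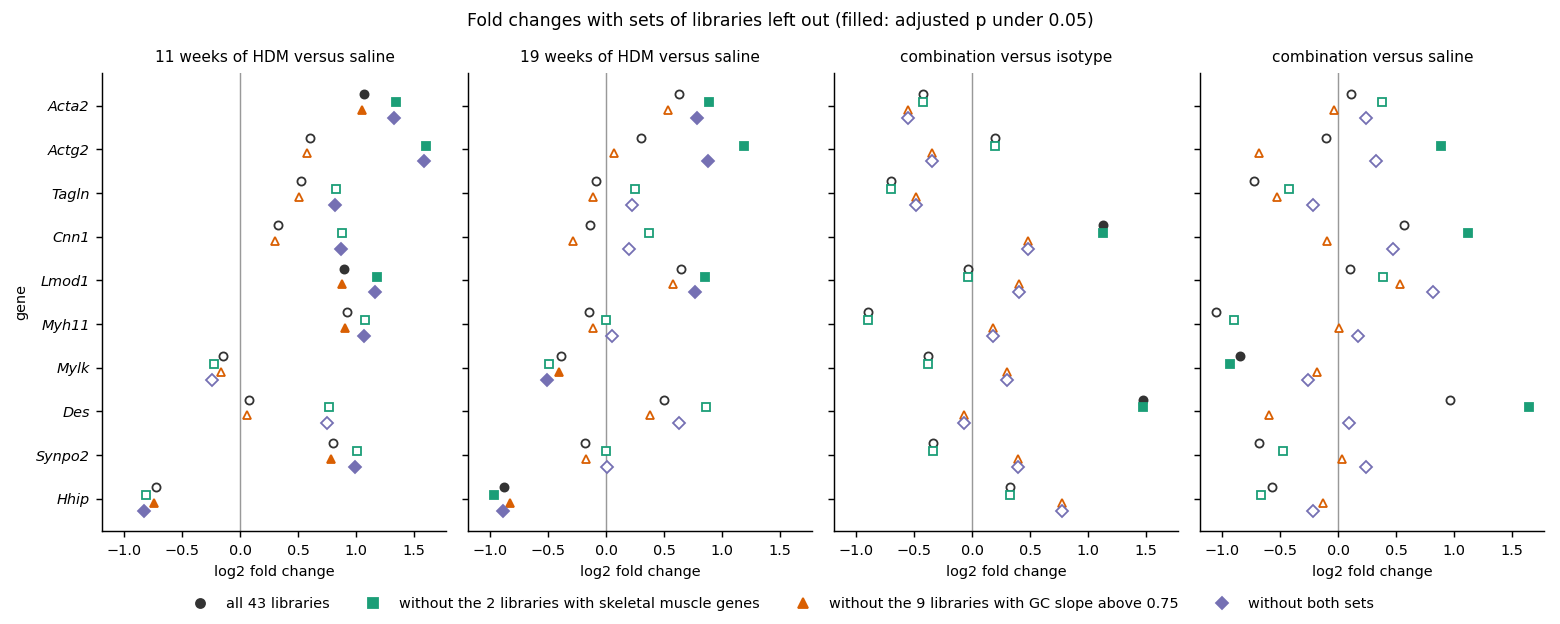
Log2 fold change of each gene (x axis) in 4 comparisons, from all 43 libraries and with sets of libraries left out, filled where adjusted p was under 0.05. At 11 weeks Acta2 and Lmod1 are filled in all 4 fits. In the combination against isotype, Des moves from 1.47 with all libraries to -0.068 without the steep ones, a fit that keeps only combination replicates 2 and 3.

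Counts of called members in other fits have to be read against the share of all genes called there. Without the 2 libraries with skeletal muscle genes, the members called were 2 for isotype against saline (23% of all genes), 2 for the combination against isotype (17.3%) and 4 for the combination against saline (47.4%). Without the steep libraries they were 2 at 19 weeks (54.8%), 2 for isotype against saline (48.7%) and 0 for the combination against saline (16.2%). Without both sets they were 5 at 19 weeks (52%), 3 for isotype against saline (51.1%), 0 for the combination against isotype (4.67%) and 0 against saline (18.8%). With the GC slope as a covariate, 5 members were called at 11 weeks (28.1% of all genes), 3 at 19 weeks (36.3%), 3 for isotype against saline (37.3%), and 0 for the combination against isotype (15.5%) or saline (23.3%). Limma voom called 8 members at 11 weeks (53.9%), 5 at 19 weeks (64.6%), 1 for 19 against 11 weeks (1.91%), 3 for isotype against saline (65.8%), 5 for the combination against isotype (58%) and 6 against saline (68.8%).

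The members did not vary as one unit. Over the 43 libraries, Pearson's r between the log2 CPM of 2 members was highest for Myh11 and Synpo2 (0.949), next for Myh11 and Mylk (0.883) and for Cnn1 and Des (0.85), and lowest for Mylk and Des (-0.639) and for Myh11 and Des (-0.557). These are descriptions over libraries that share groups, depth and GC tilt. Among the 34 libraries that were not steep, Myh11 and Synpo2 kept 0.955 and Cnn1 and Des 0.75, while Myh11 and Mylk were at 0.605, Myh11 and Des at 0.227 and Mylk and Des at 0.044. Acta2 and Tagln were at 0.78 in all libraries and 0.851 without the steep ones. Within groups, the SD of log2 CPM was largest for Myh11 (1.12) and Des (0.91) and smallest for Acta2 (0.43). Hhip, the only member outside the contractile apparatus, had an r between -0.401 (with Actg2) and 0.535 (with Mylk).

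The steep libraries separated the members into those read high, those read low and those in between. Des ran from 173 (median 273) to 507 CPM in the 9 steep libraries and from 53.9 (median 98.8) to 368 CPM in the other 23 libraries of 19 weeks of exposure. Cnn1 had medians of 50.1 and 24.2 CPM in these sets, and Actg2 of 38.7 and 24.2. The opposite held for Myh11 (27.1 against 178 CPM), Synpo2 (10.5 against 28.0), Mylk (146 against 306) and Tagln (63.2 against 120). Acta2 (192 against 273), Lmod1 (16.5 against 23.3) and Hhip (17.1 against 24.2) differed less. The GC content of the longest transcript was 56.5% for Des, 53.1% for Myh11, 51.5% for Cnn1 and 47.8% for Synpo2, so the members read high and those read low overlapped in GC. Within a library, Des minus Myh11 on the log2 scale had a median of -1.04 in saline mice, and of -1.41 and -0.93 after 11 and 19 weeks of HDM. It was -1.14 in isotype mice, -0.60 under IL-33 blockade, -0.84 under IL-4Rα blockade and 3.17 under both. Its highest values were 4.23, 4.34 and 4.17 in the 3 blocking antibody groups, and -0.52, -0.84 and -0.31 among their libraries that were not steep. RNA quality values were not among the labels, and the source of this split was not tested.

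**Figure D4:**
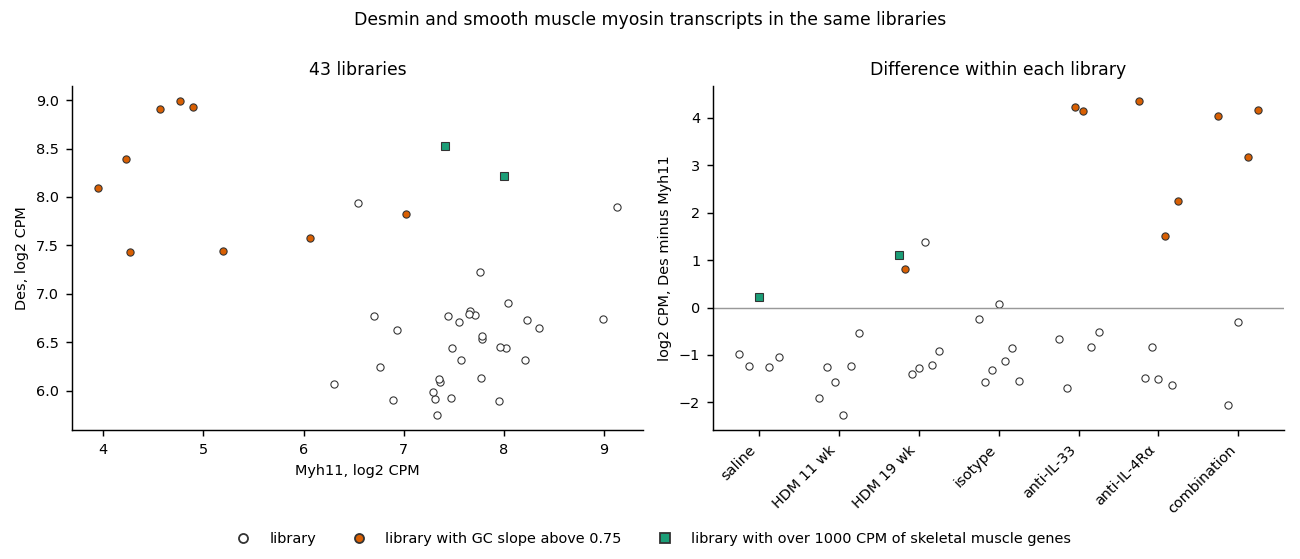
Des against Myh11 (log2 CPM, left) in 43 libraries, and their difference within each library by group (log2, right). The 9 steep libraries (orange) include the lowest Myh11 value, 15.3 CPM, and 8 of them have a difference above 1, while the 2 libraries with skeletal muscle genes (green) have high Des at ordinary Myh11.

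Other genes of the pathway, from lists taken up beside the members, moved in mixed directions. Their counts stand against 15.4% of all genes called at 11 weeks, 34.8% at 19 weeks (15.6% lower), 25.3% for isotype against saline (12.4% lower) and 19% for the combination against isotype, and no count below is read as particular to a list. Of 20 further genes of the contractile apparatus, 2 rose and 5 fell at 19 weeks against saline, a share near that of all genes (median log2 fold change 0.05, against 0.01 for all genes). Actn1, an actin cross-linker, rose from 123 ± 15.9 (SD, n = 5) to 256 ± 44.4 CPM (n = 7) (1.06, SE 0.217, adjusted p = 0.000264, edgeR), and Pdlim7 rose by 1.45. Synm, an intermediate filament partner of desmin, fell from 104 ± 24.3 to 20.5 ± 5.29 CPM (-2.35, SE 0.428, adjusted p = 5.65e-05). Pgm5 (-1.32), Vcl (-1.38) and Pdlim3 (-1.003), genes of attachment sites and Z-discs, were also among those that fell. With the combination against isotype, Ppp1r14a (2.25), Csrp1 (1.28) and Smtn (1.27) rose and none of the 20 fell, and none was called without the steep libraries. Pdlim3 lost its call at 19 weeks without the 2 libraries with skeletal muscle genes. Pdlim7, Vcl, Pdlim3, Ppp1r14a, Csrp1 and Smtn were named after their values were seen.

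Agtr1a, a receptor that acts on smooth muscle tone, fell after HDM. Of 13 genes of contraction signalling, 3 fell and none rose at 19 weeks, where 34.8% of all genes were called in either direction and 15.6% were called lower. Agtr1a, the angiotensin receptor, was at 12.6 ± 2.46 CPM in saline, 4.39 ± 0.369 at 11 weeks and 4.28 ± 0.770 at 19 weeks (log2 fold changes -1.53 and -1.56, SE 0.213 and 0.204). It passed at both times and also without the steep libraries and without the 2 libraries with skeletal muscle genes. This receptor is also made by cells other than muscle. Rock2, a kinase that sustains contraction, fell at 19 weeks (-1.22, SE 0.395, adjusted p = 0.0156). With the combination, Htr2a (-1.83) and Itpr1 (-1.15) fell against isotype, and neither was called without the steep libraries or without the 2 libraries with skeletal muscle genes.

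Of 8 regulators of smooth muscle transcription, Myocd, which encodes myocardin, rose at 11 weeks from 2.00 ± 0.541 to 6.404 ± 2.85 CPM (log2 fold change 1.68, SE 0.480, adjusted p = 0.0124). At 19 weeks it was at 4.03 ± 0.660 CPM (1.01, adjusted p = 0.0818). Mrtfa, a cofactor of serum response factor, rose at 19 weeks (1.15, adjusted p = 0.0354, not called without the 2 libraries with skeletal muscle genes) and with the combination (1.29), where Srf (1.27) and Foxf1 (1.10) rose too. None of these 3 was called for the combination without the steep libraries. In the Hedgehog pathway, 11 of 12 genes were tested. Boc, Cdon and Smo fell at 11 weeks (-0.65, -1.06 and -0.64), and at 19 weeks Cdon (-1.26), a Hedgehog co-receptor, fell and Gli2 (0.78) rose. Without the 2 libraries with skeletal muscle genes, Cdon at 11 weeks and Gli2 at 19 weeks were not called. With isotype against saline 4 of the 11 fell and none rose, where 25.3% of all genes were called (12.4% lower). Gli1 (1.19), a target of the pathway, and Sufu (0.87), its inhibitor, rose with the combination, and neither was called without the steep libraries, nor Sufu without the other set.

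Pericytes and fibroblasts share some of these genes. At 11 weeks, where Acta2 and Lmod1 were called, 0 of 9 pericyte genes rose and 1 fell, and 2 of 9 fibroblast and myofibroblast genes rose and 3 fell (15.4% of all genes called). At 19 weeks, where 34.8% of all genes were called, the pericyte gene Cspg4 rose (1.57) and Trpc6 (-1.31) and Higd1b (-0.69) fell. With the combination Notch3 (1.81) and Cox4i2 (1.67) rose, and Rgs5 fell from 14.9 ± 3.76 to 2.61 ± 1.18 CPM (-2.51, SE 0.722, adjusted p = 0.0231). Higd1b was not called without the 2 libraries with skeletal muscle genes, nor the 3 genes of the combination without the steep ones. Of 9 fibroblast and myofibroblast genes, 3 rose and 4 fell at 19 weeks, among them Col1a1 from 188 ± 41.9 to 1100.0 ± 660 CPM (2.55) and Dcn from 277 ± 165 to 72.6 ± 20.1 CPM (-1.93). The summed level of these 9 genes was 1649 to 2030 CPM in saline, 1900.0 to 3300.0 at 11 weeks and 2146 to 5710.0 at 19 weeks, while the 10 members summed to 793 to 1606, 1126 to 2676 and 862 to 1405 CPM. The part of fibroblasts and pericytes in the members' values was not tested.

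Among the other genes tested with a mean of at least 1 CPM, those whose log2 CPM most resembled the mean of the 10 centred members over the 43 libraries were Aoc3 (r = 0.788), Myl9 (0.763), Tpm2 (0.702), Tpm1 (0.689), Myocd (0.686), Actc1 (0.67), Mrvi1 (0.659), Dlgap5 (0.657), Sync (0.65) and Hpse2 (0.649). Myl9, Tpm1 and Tpm2 encode the regulatory myosin light chain and tropomyosins, and Actc1 the cardiac actin, which shares short stretches with Actg2. With each group first centred on its own mean, r ran from 0.559 for Hpse2 to 0.809 for Aoc3.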

How the data were processed

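Whole lung RNA was sequenced from 43 mice in 7 groups, taken from the sample titles. Per the labels' protocols, strand-specific libraries were made from 500 ng of RNA with 12 cycles of PCR and read as single reads of 33 cycles. The deposited values are expected counts, estimated read numbers per NCBI Gene ID that the authors left unscaled, as the columns sum to different totals and 76.8% of nonzero values are exactly whole, with no tolerance. The build was mm10 per the submitters' processing notes. The aligner, counting program, annotation and strand setting were not given in the sources used here, so overlapping and near-identical genes are uncertain.

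Counts were rounded and filtered with filterByExpr, and 15979 genes were tested by edgeR's quasi-likelihood test (edgeR 4.0.16, R 4.3.3) with TMM factors, a mean per group and all 43 libraries (36 residual degrees of freedom). Tests were 2-sided, p-values were adjusted by Benjamini and Hochberg's method over these genes, and a gene was called where the result lay under 0.05. The standard error of a log2 fold change is its size divided by the root of F, and 95% intervals are normal ones from it. CPM (counts per 1e+06 counts) used TMM-scaled totals, and log2 CPM a prior count of 1. Symbols, positions and promoters came from RefSeq (GRCm38.p6), transcripts from GENCODE.

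The fit was also run on simulated counts, whose outcome is not reported here. The simulation held no GC tilt and no libraries with skeletal muscle genes, so it cannot show how the fit deals with these. Alternatives were DESeq2 1.42.0 and its size factors, limma voom 3.58.1, no filter, the replicate number as a block, the GC slope as a covariate, and leaving out libraries. Limma voom was run with sample weights, estimated for each library, so it is not voom in its plain form. Leaving out the 2 libraries with skeletal muscle genes (summed over 1000 CPM), alone or with the 9 steep ones, was added after seeing the data. The members and gene lists were chosen with earlier results of these data known. All members were named, up to 4 genes of each other list with the smallest adjusted p at 19 weeks of HDM against saline or for the combination against isotype, and the 10 genes most like the members. Some genes of these lists are not reported here.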

Additional observations from a re-analysis of the deposited data

Results flagged for a closer look

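In 3 of 70 sets, each of 1 member in 1 group, a single library stood apart from the rest of its group. Chance flags about 1 in 20 such sets. For Actg2 in saline, replicate 3 was highest (81.6 CPM), and its gap to the next library was 0.711 of the whole range of log2 CPM. For Des in saline the same replicate was highest (298 CPM), with a gap of 0.767 of the range. For Actg2 at 11 weeks of HDM, replicate 8 was highest (96.9 CPM), with a gap of 0.718 of the range. Saline replicate 3 is the library with 1960 CPM of skeletal muscle genes. In replicate 8 of the 11-week group these genes summed to 6.31 CPM and squamous epithelium genes to 0.877 CPM, against 3.72 to 4.85 and 0.31 to 1.04 CPM in the other 11-week libraries.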

How the results depend on the processing

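Percentages here are the share of all genes called in the same fit. For 11 weeks of HDM against saline, the 2 members called became 1 without a filter on low counts (12.5%). They became 0 to 3 with 1 library left out (11.7% to 14.8%). With the GC slope as a covariate (28.1%) or without the steep libraries (33.2%) they became 5. Without both sets of libraries (35.5%) and with limma voom (53.9%) they became 8. For 19 weeks against saline the 1 call became 3 with the GC covariate (Myh11 and Lmod1 higher, Des lower, 36.3%) and 2 without the steep libraries (54.8%). It became 4 without the 2 libraries with skeletal muscle genes (28.7%), 5 without both sets (52%) and 5 with voom (64.6%). With 1 library left out it became 1 to 4 (27.3% to 35.8%). For isotype against saline the 1 call became 3 with the GC covariate (Cnn1, Des and Hhip lower, 37.3%) and 2 without the steep libraries (48.7%). It became 2 without the libraries with skeletal muscle genes (23%), 3 without both (51.1%) and 3 with voom (65.8%). With 1 left out it became 1 to 2 (20.7% to 26.6%). For the combination against isotype the 2 calls became 1 without a filter (11.2%), 0 with the GC covariate (15.5%) and 5 with voom (58%). With 1 left out the calls became 0 to 4 (1.3% to 49.5%). Without the steep libraries (3.19%) and without both sets (4.67%) they became 0. These last 2 fits keep only combination replicates 2 and 3, and in them Des reversed to -0.068 (adjusted p of 0.951 and 0.928, edgeR). For the combination against saline the 1 call became 0 with the GC covariate (23.3%), 0 without the steep libraries (16.2%) and 0 without both sets (18.8%). It became 4 without the libraries with skeletal muscle genes (47.4%) and 6 with voom (68.8%). With 1 left out it became 0 to 4 (30.2% to 62.4%). Voom gave 1 call for 19 against 11 weeks (1.91%), 4 for the combination against anti-IL-33 (48.8%) and 6 against anti-IL-4Rα (53.3%), where edgeR gave 0. The cause of these shifts was not tested. DESeq2 and its size factors gave the main calls in every comparison. Acta2 at 11 weeks was called in all 9 alternatives that did not leave out a single library.

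Same-numbered libraries of different groups did not deviate together (median r -0.0118 over 88 pairs, and 5 of 43 libraries correlated best with their own number), so the numbers were not taken as pairs. With the replicate number as a block, calls went to 0 for isotype against saline (20.6% of all genes) and 0 for the combination against isotype (3.45% of all genes, against 19% without the block). In this fit Acta2 and Lmod1 stayed called at 11 weeks (12.2%). At 19 weeks Acta2 was called and Hhip was not (adjusted p = 0.0538, edgeR, with 24.1% of all genes called). Levels per kb moved by more than 1 SD with another transcript length for 7 of 10 members.

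Depth limited no member, since each was read at 6.98 CPM or more in every library. The limits are the 5 to 7 mice per group, the uneven GC tilt between groups, and the spread shared by all groups.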
